A study of Homo sapiens with 3 samples.

Results

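The nuclear genome encodes most subunits of the machinery of oxidative phosphorylation, and the transcripts of 76 such subunit genes are described here across 3 expression arrays. A gene was taken when the single symbol of a probe set was NDUFA, NDUFB, NDUFC, NDUFS or NDUFV with a number, SDHA to SDHD, or began with UQCR, COX4 to COX8 or ATP5, and pseudogenes were left out. Of 19775 genes on the array, 76 met the rule, through 150 probe sets. They were 32 genes of complex I, 3 of complex II, 6 of complex III, 17 of complex IV and 18 of complex V. Each gene was read from its probe set with the highest mean signal. Another 10 probe sets carried a subunit symbol together with further symbols and were left out, and subunits without a probe set of their own are not analysed here.

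Oxidative phosphorylation runs in the inner mitochondrial membrane. Complex I takes electrons from NADH and complex II from succinate, complex III passes them from ubiquinone to cytochrome c, and complex IV hands them to oxygen. Complexes I, III and IV pump protons while they do so, and complex V, the ATP synthase, lets the protons flow back to make ATP. Apart from a small set of core proteins made from mitochondrial DNA, the subunits are translated in the cytosol and imported, and liver is among the tissues rich in mitochondria. NRF1, the ETS factor GABP and YY1 are known to bind promoters of many of these nuclear genes.

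The series holds total RNA of cells whose label is HepG2, an established line from a human liver tumour, with 1 array for each of 3 stable transfections. These were an open reading frame vector for Hsp27 (labelled ORF), a short hairpin RNA vector against Hsp27 (labelled shRNA) and a control vector (labelled control), all grown in the same serum-containing medium. HSPB1 is the gene of Hsp27, a chaperone of the small heat shock family, and the series asks about its part in liver cancer spread. No replicate arrays were analysed, so each difference below has no replicate check, describes these 3 arrays and not the conditions, and comes without a p-value. Whether the transfected cells were pools or single clones is not given in the sources used here, and precision is limited by the small number of arrays. Fewer cells of a type and less RNA per cell cannot be told apart in such bulk samples.

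HSPB1 was checked first. Its log2 signal was 13.11 for the array labelled ORF, 13.03 for that labelled shRNA and 13.25 for that labelled control, a log2 ratio of −0.14 for ORF against control and −0.22 for shRNA against control. The control array was the highest of the 3, so the array labelled ORF went against its label in this probe set, and every direction below rests on the labels alone. Markers of hepatocytes were nearly absent, with 1 of 7 above the floor of 5.93 log2 units and 0 as bright as the pooled 75th percentile (8.63), and ALB (albumin) read at most 4.88. Summed linear signals over these 7 were 235.1 on ORF, 220.3 on shRNA and 227.4 on control, and ALB, APOA1, APOB, TTR, SERPINA1 and FGB were below the floor on every array. The 1 that passed, AFP, did so only on shRNA (6.25). These values went against the HepG2 label of a liver line on all 3 arrays, so the identity of the cells rests on that label alone and was not tested. All 4 fibroblast markers passed the floor, but COL1A2 did so only on control (6.02) and PDGFRB only on ORF (6.02). COL1A1 and DCN were the 2 as bright as the pooled 75th percentile. They moved oppositely for shRNA against control, with log2 ratios of 0.80 and −0.90. Sums over the 4 were 1892 on ORF, 2255 on shRNA and 2124 on control. Of 3 leukocyte markers 1 passed the floor, with sums of 139.3, 82.5 and 55.2 in the same order. For striated muscle, whose mitochondria use some of the isoforms below, 1 of 3 markers was above the floor, and sums were 108.9 on ORF, 83.6 on shRNA and 56.8 on control. The 3′ to 5′ signal ratio of ACTB, a sign of RNA quality, was 2.40 on ORF, 2.23 on shRNA and 2.70 on control, so it was highest on the control array and lowest on the shRNA array. That of GAPDH was 0.939 on ORF, 0.900 on shRNA and 0.930 on control, nearly equal and highest on ORF. The part of these values in the results was not tested.

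The promoters of 7 subunit genes are shown, chosen after their values had been seen, because each of these genes differed from control by 1.2-fold or more on at least 1 vector array. Other genes past that fold are not shown. Each run covers 250 bases before to 50 bases after the gene start, read on the gene's own strand, from RefSeq's promoters for GRCh38.p14. Capitals mark a match on either strand to 1 of 3 motifs, an NRF1-type motif GCGCANGCG, an ETS-type motif CCGGAAGT and a YY1-type motif AAGATGGCG, and a run without capitals holds none of the 3. SDHA lies at chr5:218070-218369 on the plus strand, COX6A1 at chr12:120437863-120438162 on the plus strand, NDUFA6 at chr22:42090723-42091022 on the minus strand, ATP5PD at chr17:75046920-75047219 on the minus strand, NDUFA10 at chr2:240025293-240025592 on the minus strand, NDUFB7 at chr19:14572017-14572316 on the minus strand and ATP5IF1 at chr1:28235874-28236173 on the plus strand.
SDHA: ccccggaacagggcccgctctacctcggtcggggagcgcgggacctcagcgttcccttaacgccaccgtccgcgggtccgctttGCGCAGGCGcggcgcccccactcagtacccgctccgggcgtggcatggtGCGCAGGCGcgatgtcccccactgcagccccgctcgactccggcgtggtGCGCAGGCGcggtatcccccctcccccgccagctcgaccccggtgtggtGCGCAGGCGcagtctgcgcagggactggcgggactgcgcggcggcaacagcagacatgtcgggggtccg
COX6A1: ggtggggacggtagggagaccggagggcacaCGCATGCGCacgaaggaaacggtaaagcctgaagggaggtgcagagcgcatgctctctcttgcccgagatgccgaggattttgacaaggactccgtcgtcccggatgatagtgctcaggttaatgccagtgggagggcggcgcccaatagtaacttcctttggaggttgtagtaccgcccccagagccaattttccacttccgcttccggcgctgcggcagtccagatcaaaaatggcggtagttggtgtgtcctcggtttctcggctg
NDUFA6: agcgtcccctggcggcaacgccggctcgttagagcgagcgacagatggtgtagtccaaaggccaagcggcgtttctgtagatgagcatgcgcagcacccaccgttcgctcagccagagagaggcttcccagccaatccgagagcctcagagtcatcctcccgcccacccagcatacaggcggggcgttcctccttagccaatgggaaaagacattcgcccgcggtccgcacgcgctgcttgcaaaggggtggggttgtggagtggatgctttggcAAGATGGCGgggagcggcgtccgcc
ATP5PD: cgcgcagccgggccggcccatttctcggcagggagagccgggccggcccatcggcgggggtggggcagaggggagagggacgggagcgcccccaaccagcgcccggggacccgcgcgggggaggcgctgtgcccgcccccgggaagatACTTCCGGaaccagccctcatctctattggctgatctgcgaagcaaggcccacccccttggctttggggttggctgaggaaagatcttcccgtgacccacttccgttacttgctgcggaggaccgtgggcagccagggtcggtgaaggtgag
NDUFA10: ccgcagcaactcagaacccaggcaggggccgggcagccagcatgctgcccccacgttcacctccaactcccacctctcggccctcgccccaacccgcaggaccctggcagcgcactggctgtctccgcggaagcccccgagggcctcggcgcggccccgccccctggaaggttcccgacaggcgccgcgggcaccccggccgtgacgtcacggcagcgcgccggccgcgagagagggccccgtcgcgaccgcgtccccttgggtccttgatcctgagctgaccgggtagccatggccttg
NDUFB7: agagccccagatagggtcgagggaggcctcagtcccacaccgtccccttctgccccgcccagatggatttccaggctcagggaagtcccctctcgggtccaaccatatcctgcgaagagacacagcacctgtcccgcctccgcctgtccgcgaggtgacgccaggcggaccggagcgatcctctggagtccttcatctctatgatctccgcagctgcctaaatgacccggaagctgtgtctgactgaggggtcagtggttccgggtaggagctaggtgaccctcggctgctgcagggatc
ATP5IF1: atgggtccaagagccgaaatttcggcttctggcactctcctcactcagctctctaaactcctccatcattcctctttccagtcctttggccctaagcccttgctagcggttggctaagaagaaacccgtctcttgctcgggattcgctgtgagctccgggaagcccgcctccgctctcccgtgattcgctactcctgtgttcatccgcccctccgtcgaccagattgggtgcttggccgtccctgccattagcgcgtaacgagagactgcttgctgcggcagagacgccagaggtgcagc

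The SDHA window held 4 copies of the NRF1-type motif on the gene's strand, beginning at bases 85, 134, 183 and 232 of the window. COX6A1 had 1 NRF1-type match on the opposite strand from base 32, ATP5PD 1 ETS-type match on the opposite strand from base 149, and NDUFA6 1 YY1-type match from base 276, just downstream of the gene start. NDUFA10, NDUFB7 and ATP5IF1 held none of the 3 motifs. A promoter was found for 65 of the 76 genes. Of these, 21 (32.3%) held the NRF1-type motif, against 11.02% of 15843 promoters of protein-coding genes of the same length. The ETS-type motif was in 9 (13.8%, against 6.19% of all) and the YY1-type motif in 7 (10.8%, against 2.74% of all), and 31 of 65 (47.7%) held at least 1 of the 3, against 18.1%. Promoters could hold more than 1 motif and overlapping matches were counted. The median GC content was 61% for the subunit promoters and 62.7% for all. By complex, at least 1 motif was in 13 of 30 promoters of complex I, 2 of 2 of complex II, 4 of 5 of complex III, 4 of 14 of complex IV and 8 of 14 of complex V. Matches are letters in a window, and a window without them says nothing about a factor's binding elsewhere. The 21 genes with the NRF1-type motif had a median log2 ratio of −0.040 for ORF against control and −0.072 for shRNA against control, and the 44 without it had −0.072 and −0.13. For the ETS-type motif the medians were −0.061 and −0.098 over the 9 genes with it and −0.063 and −0.10 over the 56 without. For the YY1-type motif they were −0.090 and −0.11 over the 7 with it and −0.061 and −0.096 over the 58 without. COX8C, below the floor on all arrays and so with ratios fixed at 0, was among the 21 genes with the NRF1-type motif and among those without the other motifs.

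Most subunit probe sets read high. Of the 76 genes, 74 exceeded the floor on 1 or more arrays, and 64 had a mean signal at or above 11.88 log2 units, the 95th percentile of all probe sets, a class called top signal and chosen after the values had been seen. On the whole array 12664 genes were above the floor and 1824 were of top signal. The 2 genes below the floor on all arrays were COX7A1, the heart and muscle isoform of a complex IV subunit, and COX8C, a testis isoform, with signals of at most 2.72 and 1.32. The 74 measured genes passed this filter by signal on any array, and counts below cover them.

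Differences between the arrays were small and leaned one way, with subunit transcripts somewhat lower on both vector arrays than on the control array. For ORF against control the median log2 ratio of the 74 genes was −0.066, with 57 genes below 0 and 17 above, while all 12664 genes had a median of 0 and the 1824 top-signal genes −0.041. For shRNA against control the median was −0.11, with 54 genes below 0 and 18 above, against −0.0060 for all genes and −0.044 for top-signal genes. For ORF against shRNA it was 0.035, with 48 genes above 0 and 26 below, against 0.0051 for all genes and 0.0050 for top-signal genes. Of the 64 top-signal subunit genes, 53 were below 0 for ORF and 52 for shRNA against control. Of all 1824 top-signal genes 1173 and 1119 were, and of all 12664 genes 6251 and 6469. For ORF against shRNA, 42 of the 64 were above 0, and 942 of the 1824. Much of the lean was thus shared by other bright genes, and counts by complex below are to be read beside these shares. Both comparisons against control share the control array, so a single high or low control reading enters both. The control array gave the highest of the 3 signals for 47 of 74 genes (63.5%), and for 45 of 64 top-signal subunit genes (70.3%) against 50.4% of all top-signal genes. The shRNA array gave the lowest for 43 of 74 (58.1%), and for 41 of the 64 (64.1%) against 42.9% of top-signal genes.

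Few individual genes differed by much. At 1.2-fold, a log2 ratio of 0.26, 4 of 74 subunit genes were higher and 2 lower for ORF against control, where 12.9% of all genes above the floor were higher and 12.3% lower. The 4 were NDUFA10 and the dim ATP5MF, COX6B2 and COX4I2. COX6B2 passed the floor only on ORF and ATP5MF only on the vector arrays. Their floored ratios against control could therefore not be negative, and these calls carry no information on direction. Among the 64 top-signal subunit genes the counts were 0 higher and 2 lower, against 1.81% and 4.06% of top-signal genes. For shRNA against control 2 of 74 were higher and 6 lower, against 15% and 15.3% of all genes. Of the 64 top-signal subunit genes 1 was higher and 6 were lower there, against 5.1% and 5.76%. Quantile normalization and loess centring each left 2 lower subunit genes for shRNA against control. Set directly against each other, ORF and shRNA differed by 1.2-fold in 3 higher and 1 lower subunit gene of 74, against 13.3% and 12.5% of all genes, and in 1 and 1 of the 64 of top signal, against 2.03% and 4.06%. The 3 higher were NDUFB3 and again ATP5MF and COX6B2, near the floor. At 1.5-fold, 0 genes were higher and 0 lower for ORF against control (3.04% and 2.82% of all genes), 1 was higher and 0 lower for shRNA against control (3.59% and 3.3%), and 0 were higher and 0 lower for ORF against shRNA (2.64% and 2.68%). The noise SD, the disagreement between probe sets of the same gene at like signal, for ORF against control was 0.080 among the brightest pairs of probe sets, against 0.41 among the dimmest, so all genes above the floor include many noisier ones.

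**Figure D1:**
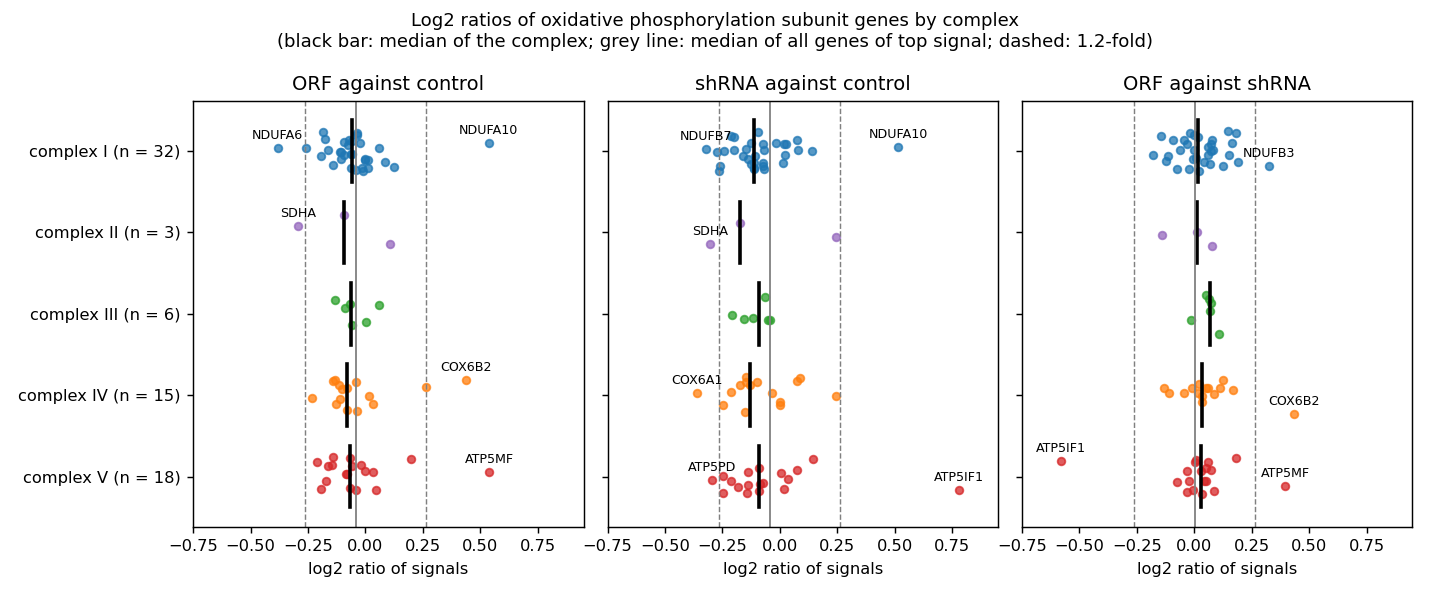
Log2 ratios of the 74 measured subunit genes in rows by complex, for ORF and for shRNA against control (left, middle) and for ORF against shRNA (right). Each point is 1 gene spread vertically at random, the black bar is the median of the complex, the grey line the median of the 1824 top-signal genes and the dashed lines 1.2-fold. The medians of the 5 complexes lie between −0.093 and −0.061 for ORF against control and between −0.17 and −0.091 for shRNA against control, although the complex V median for ORF against control turns to 0.0095 with quantile normalization and 0.0050 with loess centring. Without probe sets ending in _x_at or _s_at, the complex II medians turn to 0.082 for ORF and 0.088 for shRNA against control, and the complex III median for shRNA against control to 0.053.

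Ratios against control drifted with signal over the whole array, and part of the lean was shared by other genes of like signal. Among genes with a mean signal between 11.88 and 13, the 23 subunit genes had a median of −0.067 for ORF against control and the 1111 other genes −0.024, and for shRNA against control the medians were −0.12 and −0.021. Between 13 and 14, the 29 subunit genes had −0.065 and −0.093, and the 462 others −0.040 and −0.038. At 14 and above, the 12 subunit genes had −0.11 for ORF against control and the 187 others −0.12, and for shRNA against control −0.15 and −0.14. From the lowest range to the highest, 78.3%, 79.3% and 100% of subunit genes were below 0 for ORF against control. For other genes these shares were 57.4%, 68.0% and 89.8%. For shRNA against control they were 78.3%, 82.8% and 83.3% of subunit genes and 54.8%, 62.3% and 90.9% of others. By their medians, the subunit genes thus lay below other genes in the lower ranges and level with them among the brightest. Quantile normalization and loess centring, which level the drift, gave subunit medians of −0.019 and −0.013 for ORF against control and −0.055 and −0.052 for shRNA against control. The sign held under each of these scalings and the size was less. For ORF against control, 44 subunit genes were below 0 and 30 above with quantile normalization, and 43 and 31 with loess centring. For shRNA against control, 48 were below 0 and 24 above with quantile normalization, and 49 and 23 with loess centring.

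**Figure D2:**
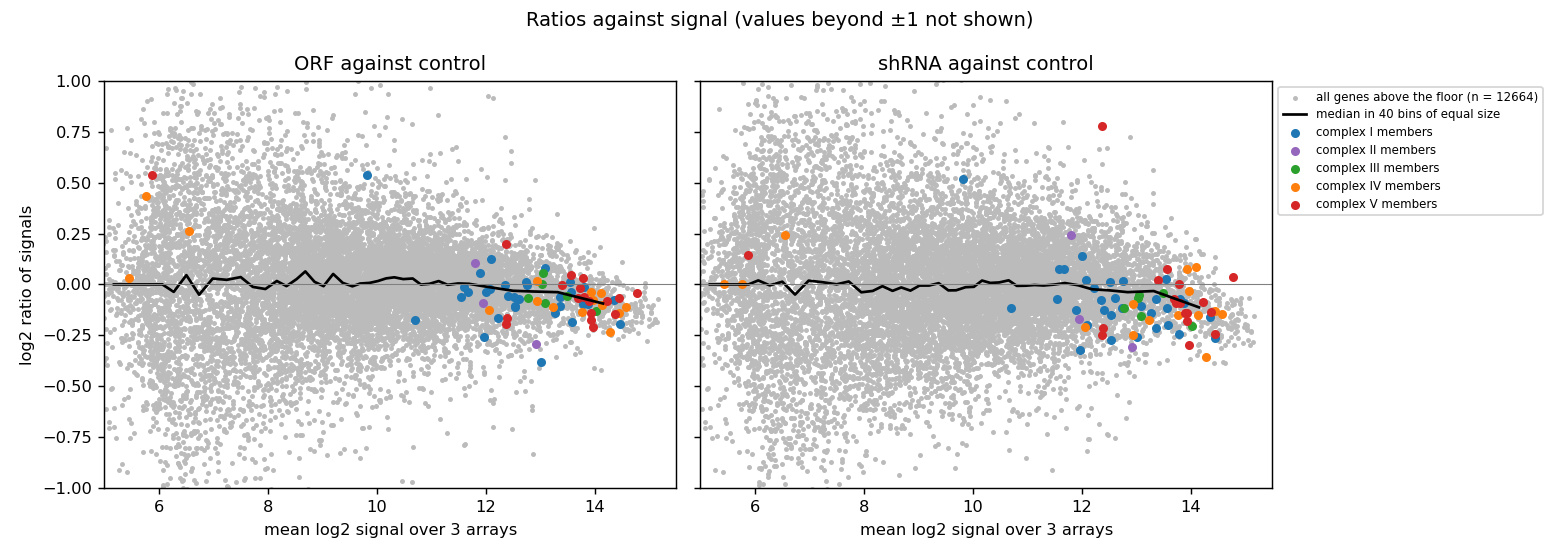
Log2 ratio against mean log2 signal over the 3 arrays, for ORF against control (left) and shRNA against control (right). Grey points are the 12664 genes above the floor, the black line is their median in 40 bins of equal size, and coloured points are the subunit genes by complex. The black line bends below 0 at high signal, where the medians of other genes at or above 14 are −0.12 and −0.14, and 64 of 74 subunit genes lie in the top-signal range.

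Complex I is the entry point for NADH, and 32 of its nuclear subunits were measured. Their median log2 ratio was −0.061 for ORF against control, with 26 genes below 0 and 6 above, and −0.11 for shRNA against control, with 24 below and 8 above. For ORF against shRNA it was 0.019, with 18 above and 14 below, and it turned to −0.011 when the medians of the arrays were set equal. Within the complex, the core subunits carry out catalysis. The core measured here comprised NDUFV1, which binds NADH, and NDUFV2, NDUFS1, NDUFS3 and NDUFS7, which carry or hold the iron-sulfur clusters and the ubiquinone site. All 5 were below 0 for shRNA against control, between −0.12 and −0.070, while for ORF against control their median was 0.011 (−0.018 with equal medians) and 3 of 5 were above 0. For shRNA against control, 1 of 2 other NDUFS1 probe sets with a mean signal above the floor shared the sign, and the brighter one gave 0.11. The only other such probe set of NDUFS7 was dim and gave 0.92. NDUFS3 read 13.18 on ORF, 12.99 on shRNA and 13.10 on control. NDUFV1 read 11.97 on ORF, 11.79 on shRNA and 11.91 on control, and NDUFV2 12.79 on ORF, 12.66 on shRNA and 12.78 on control. In these 3 genes the shRNA array was the lowest and the ORF array the highest, and ORF against shRNA came to 0.19, 0.18 and 0.13. Noise SDs were 0.096, 0.13 and 0.10 for these ratios. In NDUFS7 the ORF array was the lowest and the control array the highest, with 10.62 on ORF, 10.69 on shRNA and 10.80 on control. Its ratio for ORF against shRNA was −0.063 with a noise SD of 0.15.

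The membrane-arm accessory subunits NDUFB1 to NDUFB11 and NDUFC1 brace the proton-pumping arm. Their median over 12 genes was −0.078 for ORF against control and −0.12 for shRNA against control, with 10 of 12 below 0 in each. NDUFB7, a subunit that faces the intermembrane space, read 11.90 on ORF, 11.84 on shRNA and 12.16 on control, ratios of −0.26 and −0.32 against control with noise SDs of 0.11 and 0.15. Its only other probe set with a mean signal above the floor was dim and read the opposite way, at 6.82 on ORF, 7.40 on shRNA and 6.29 on control. NDUFB3, a small membrane subunit, stood out in ORF against shRNA, with 12.24 on ORF, 11.92 on shRNA and 12.12 on control, a ratio of 0.32 with a noise SD of 0.12. Its ratio stayed between 0.29 and 0.34 under the alternatives that had a value for it. NDUFB3 had no other probe set with a mean signal above the floor. It was read by 1 probe set, ending in _s_at, so no alternative could read it from another.

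Among the 15 remaining accessory subunits, 14 were below 0 for ORF against control with a median of −0.040, and 9 for shRNA against control with a median of −0.072. NDUFA10, an accessory subunit with a nucleoside kinase fold, was the exception. It read 10.01 on ORF, 9.98 on shRNA and 9.47 on control, so both vector arrays stood above the control array, at 0.54 and 0.52 on the log2 scale or 1.45-fold and 1.43-fold, with noise SDs of 0.15 and 0.21. A dimmer probe set of the gene read the same way, at 6.54 on ORF, 6.59 on shRNA and 5.68 on control. NDUFA6, a member of the LYR-motif family that docks an acyl carrier protein, was the lowest of the complex on ORF, with 12.84 on ORF, 12.96 on shRNA and 13.22 on control, ratios of −0.38 and −0.26. Its second probe set gave 10.25 on ORF, 10.21 on shRNA and 10.30 on control, the same order against control but a smaller difference, with ratios of −0.052 and −0.092. NDUFA7 and the zinc-binding NDUFS6, named because they were among the 6 genes past 1.2-fold, were lower on shRNA than on control, by −0.28 and −0.26. NDUFA5, a matrix-arm subunit, was the lowest of the complex for ORF against shRNA at −0.18, with 11.94 on ORF, 12.11 on shRNA and 11.97 on control.

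Complex II is succinate dehydrogenase, which also works in the citric acid cycle. SDHA, the flavoprotein that oxidises succinate, read 12.82 on ORF, 12.81 on shRNA and 13.12 on control. Both vector arrays were lower than control by nearly the same amount, with ratios of −0.29 and −0.31, noise SDs of 0.091 and 0.13, and fold values of 1.23 and 1.24 for control over each. SDHA passed 1.2-fold in both comparisons against control, and its ratios ranged from −0.32 to −0.26 and from −0.31 to −0.26 over the alternatives that had a value for it. It was read by 1 probe set, of a kind that can match several transcripts. The membrane anchor SDHD differed in direction, with 11.79 on ORF, 11.93 on shRNA and 11.69 on control, ratios of 0.11 and 0.24 with noise SDs of 0.11 and 0.16. SDHC, the other anchor, had 11.95 on ORF, 11.87 on shRNA and 12.04 on control from its brightest probe set, and 6 further probe sets with a mean signal above the floor, of which 1 shared the sign for ORF against control and 3 for shRNA against control. The direction of SDHC therefore depended on the probe set.

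Complex III, the cytochrome bc1 complex, varied little. Its 6 genes had medians of −0.062 for ORF against control and −0.091 for shRNA against control, 6 of 6 were below 0 for shRNA against control, and 0 passed 1.2-fold in any comparison. Without probe sets ending in _x_at or _s_at the median for shRNA against control turned to 0.053. UQCRQ, a small subunit near the ubiquinone site, was the lowest against control, with 13.999 on ORF, 13.93 on shRNA and 14.13 on control and ratios of −0.13 and −0.21. UQCRB, which binds ubiquinone, read 13.47 on ORF, 13.49 on shRNA and 13.53 on control. UQCR11 was the only small subunit above 0 for ORF against control, with 13.11 on ORF, 13.002 on shRNA and 13.05 on control. The core proteins UQCRC1 and UQCRC2 were both higher on ORF than on shRNA, by 0.066 and 0.068, below their noise SDs of 0.096 and 0.097.

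Complex IV, cytochrome c oxidase, has common and tissue-specific isoforms of several subunits. Over 15 measured genes its medians were −0.080 for ORF against control and −0.13 for shRNA against control, the second 0 after quantile normalization. The 10 common isoforms were all of top signal, with medians of −0.11 for ORF against control and −0.14 for shRNA against control, and 9 and 8 of 10 below 0. After quantile normalization both medians were −0.012. COX6A1, the common isoform of subunit VIa, was the lowest gene of the complex, with 14.25 on ORF, 14.12 on shRNA and 14.48 on control. Its ratios were −0.23 and −0.36, the second 1.28-fold for control over shRNA, with noise SDs of 0.080 and 0.12, and quantile normalization brought them to −0.11 and −0.24. COX5B was the highest common isoform for shRNA against control, with 14.05 on ORF, 14.18 on shRNA and 14.09 on control, and COX7A2 was the only other one above 0 there. The COX5B ratio of 0.088 had a noise SD of 0.12. Of 3 other COX5B probe sets with a mean signal above the floor, 1 shared its sign, and the brighter ones gave −0.16 and −0.12. COX7A2L, a protein that joins complexes III and IV into supercomplexes, was lower on shRNA than on both other arrays, at 12.98 on ORF, 12.81 on shRNA and 13.06 on control.

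Tissue isoforms were near or below the floor, with 1 exception. COX7B2, known as a testis isoform, was of top signal, with 12.05 on ORF, 11.96 on shRNA and 12.17 on control, and its ratios of −0.13 and −0.21 were close to the medians of the common isoforms. The hypoxia- and lung-linked COX4I2 read 6.65 on ORF, 6.63 on shRNA and 6.39 on control. The testis isoform COX6B2 read 6.36 on ORF, 5.84 on shRNA and 5.08 on control, and the heart and muscle isoform COX6A2 5.96 on ORF, 4.91 on shRNA and 5.46 on control. The floored ratios of COX6B2 (0.44 for ORF against control) and COX4I2 (0.27) were of the size of their noise SDs of 0.41 and 0.43.

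**Figure D3:**
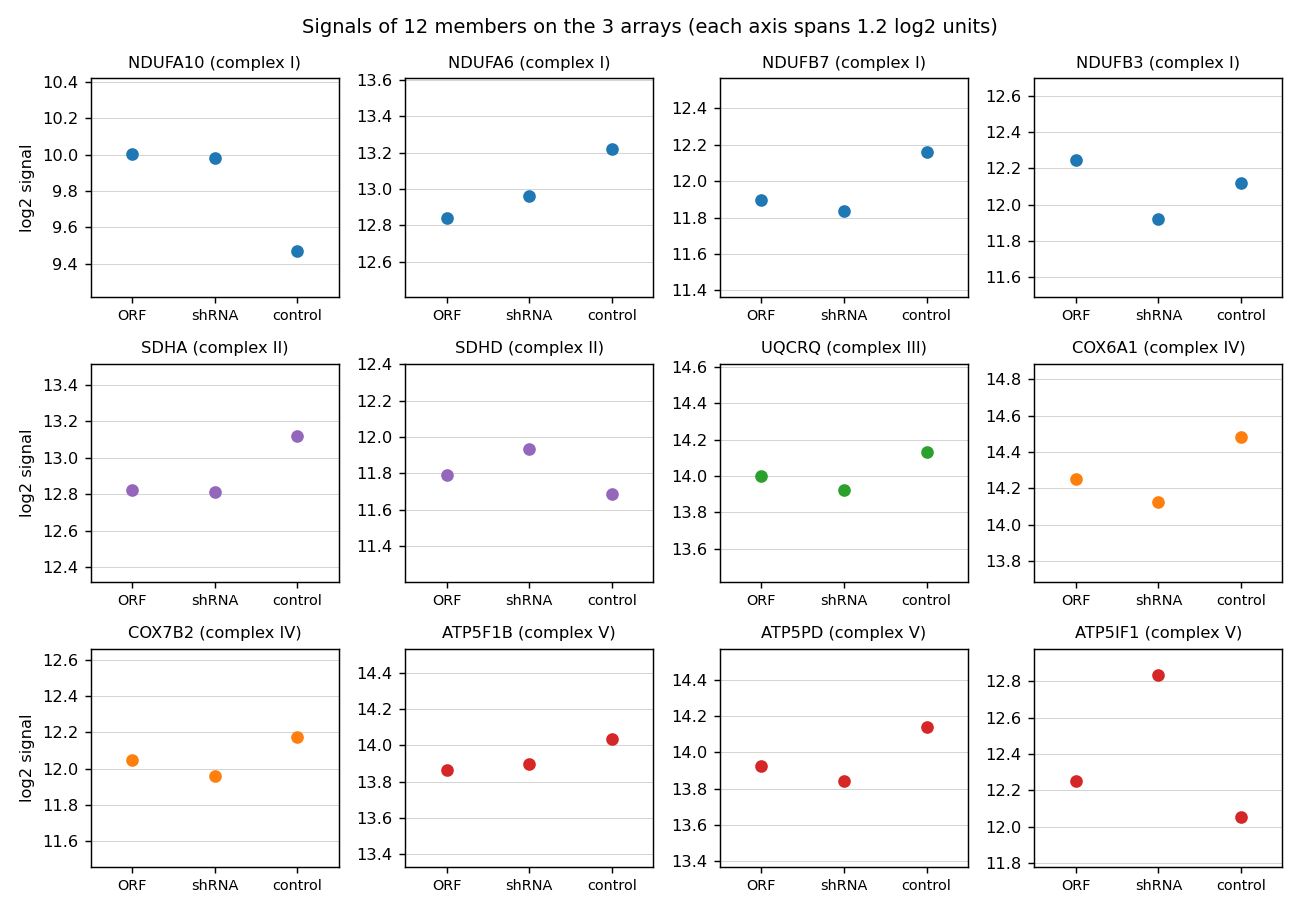
Log2 signals of 12 subunit genes by array label (ORF, shRNA, control), 1 point per array, coloured by complex, with every vertical axis spanning 1.2 log2 units. The control point is the highest for NDUFA6, NDUFB7, SDHA, UQCRQ, COX6A1, COX7B2, ATP5F1B and ATP5PD, the lowest for NDUFA10 (9.47), SDHD (11.69) and ATP5IF1 (12.05), and NDUFB3 is lowest on shRNA (11.92).

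Complex V, the ATP synthase, had a median of −0.066 for ORF against control, with 14 of 18 genes below 0, and of −0.092 for shRNA against control, with 12 below 0. The median for ORF against control turned to 0.0095 after quantile normalization and 0.0050 after loess centring. In the catalytic head and central stalk, ATP5F1B, the catalytic beta subunit, read 13.86 on ORF, 13.89 on shRNA and 14.04 on control, and ATP5F1D, a central stalk subunit, 12.32 on ORF, 12.26 on shRNA and 12.51 on control. These 2 were lower on both vector arrays, by −0.17 and −0.14 for ATP5F1B and by −0.20 and −0.25 for ATP5F1D, while ATP5F1C, ATP5F1A and ATP5F1E lay between −0.088 and 0.036 in both. The 3 genes for the c-ring, ATP5MC1, ATP5MC2 and ATP5MC3, encode the same mature protein, and all 3 were below 0 against control on both arrays, with medians of −0.083 and −0.14. Of 2 other ATP5MC3 probe sets with a mean signal above the floor, 1 shared the sign in both. The other, dimmer one read 8.95 on ORF, 8.68 on shRNA and 8.06 on control, ratios of 0.89 and 0.62. In the peripheral stalk, ATP5PD read 13.93 on ORF, 13.84 on shRNA and 14.14 on control, ratios of −0.21 and −0.30. The second was −0.21, under 1.2-fold, with quantile normalization and with loess centring, and 0.020 without probe sets ending in _x_at or _s_at, where a dimmer probe set was read. ATP5PB read 14.49 on ORF, 14.31 on shRNA and 14.56 on control, ratios of −0.066 and −0.25. The only other ATP5PB probe set with a mean signal above the floor was dimmer and gave 0.22 and 0.31. ATP5PF had 0.045 and 0.075, within its noise SDs of 0.083 and 0.12. Among the small membrane subunits, ATP5MF sat near the floor on its probe set, at 6.47 on ORF, 6.07 on shRNA and 5.08 on control, so its ratio of 0.54 for ORF against control had a noise SD of 0.41 and depended on the floor (1.39 with no floor).

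ATP5IF1, the inhibitor that blocks ATP hydrolysis by the synthase when the proton gradient fails, had the largest ratio of all 74 genes and was the only one past 1.5-fold. The probe set used read 12.25 on ORF, 12.83 on shRNA and 12.05 on control. It was thus 1.72-fold higher on shRNA than on control, a log2 ratio of 0.78 with a noise SD of 0.14, and −0.58 for ORF against shRNA. A second probe set of nearly the same mean signal read 12.29 on ORF, 12.35 on shRNA and 12.49 on control, a ratio of −0.14 for shRNA against control. The third, dimmer one read 7.97 on ORF, 7.93 on shRNA and 8.29 on control, a ratio of −0.36. Only 1 of 3 probe sets placed the shRNA array highest, so the direction for this gene was not settled by these arrays. Without ATP5IF1 the counts at 1.2-fold were 1 higher gene for shRNA against control and 0 lower genes for ORF against shRNA.

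**Figure D4:**
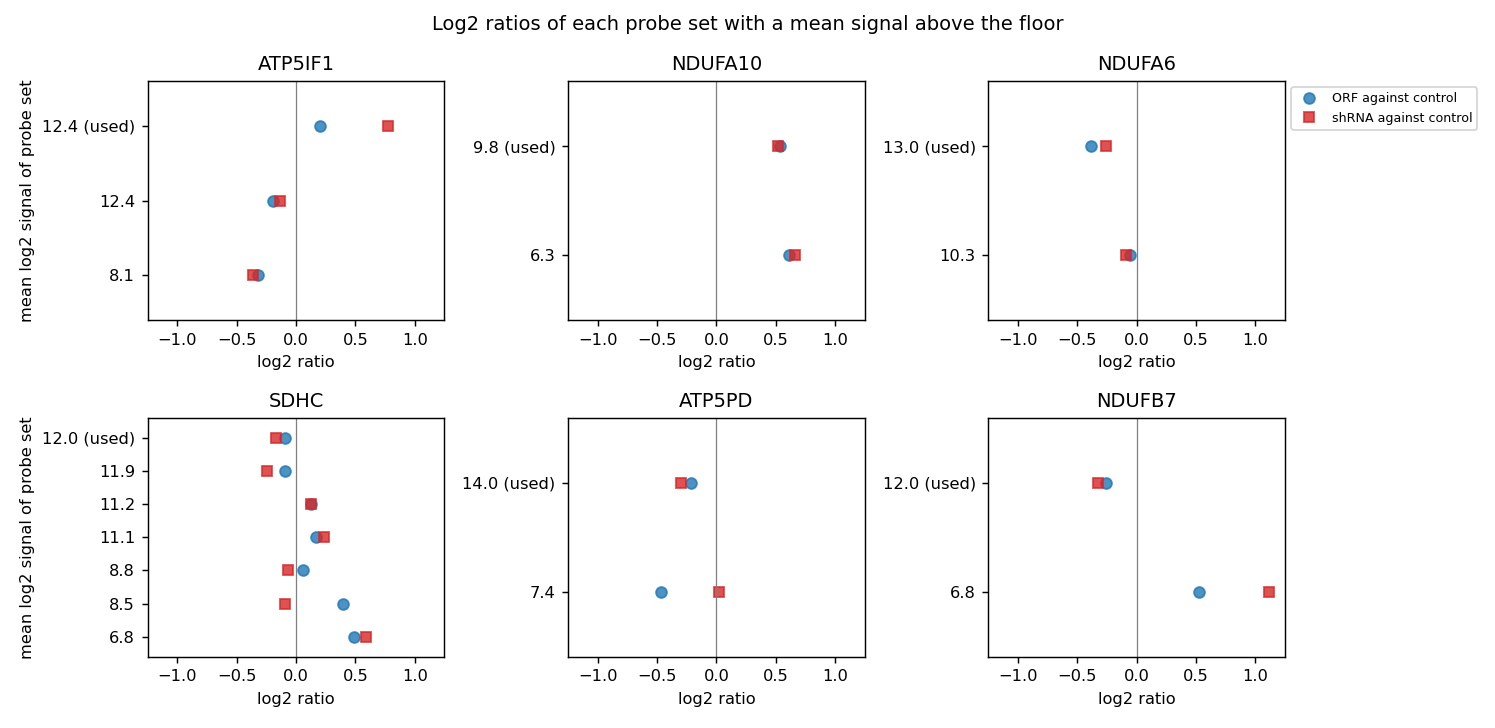
Log2 ratios of every probe set with a mean signal above the floor for 6 subunit genes, with the mean log2 signal of each probe set on the vertical axis labels and the probe set used marked. Circles are ORF against control and squares shRNA against control. The probe sets of NDUFA10 and NDUFA6 share their sign in both comparisons, and those of ATP5IF1 and NDUFB7 do not, with 0.78, −0.14 and −0.36 for ATP5IF1 on shRNA against control.

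Other subunit genes could be checked in the same way where they had a further bright probe set, one at or above 8.63 log2 units. Of 33 such probe sets, 22 had the sign of the probe set used for ORF against control, 18 for shRNA against control and 17 for ORF against shRNA. Signs between probe sets thus matched only a little more often than not. In 36 of the 76 genes another probe set had a mean signal above the floor, and 40 had none. The interquartile range of the 64 top-signal subunit ratios was −0.13 to −0.021 for ORF against control and −0.20 to −0.061 for shRNA against control, their SDs were 0.096 and 0.16, and the median noise SDs were 0.085 and 0.12. The spread among the genes was thus only somewhat larger than the disagreement between probe sets.

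Genes that serve the same complexes did not all lie where the nuclear subunits lay. The 7 mitochondrially encoded subunits had medians of −0.071 for ORF against control and −0.14 for shRNA against control, which turned to 0.059 and 0.0032 with quantile normalization. Among them COX2, the copper-carrying core of complex IV, read 15.06 on ORF, 15.004 on shRNA and 15.23 on control, and COX3 was higher on both vector arrays, at 11.93 on ORF, 12.17 on shRNA and 11.66 on control. Assembly factors of complex I (16 genes) had medians of 0.0092 for ORF against control and −0.027 for shRNA against control, and those of complex IV (21 genes) 0.0076 and −0.028, although both medians for ORF against control turned sign under at least 1 scaling. Many of these factors were dimmer than the subunits. The 4 complex I factors of top signal had −0.049 and −0.076, and the 10 of complex IV −0.039 and −0.054. These lay on the same side of 0 as the 64 top-signal subunits, at −0.078 and −0.13. The 9 assembly factors of complexes II and III had −0.043 and −0.10, and the 4 of the ATP synthase −0.029 and −0.15. The complex IV factor COX10, which makes heme O, read 9.50 on ORF, 8.84 on shRNA and 9.19 on control, 0.66 for ORF against shRNA with a noise SD of 0.22. For complex II, SDHAF1 was lower on both vector arrays (−0.39 and −0.58) and SDHAF3 higher on both (0.30 and 0.60), and both help insert the iron-sulfur clusters of the complex. Noise SDs were 0.23 and 0.27 for SDHAF1 and 0.15 and 0.21 for SDHAF3. Genes of the related lists were named for their large ratios, and their other probe sets were not compared. In the carrier list of 14 genes, SLC25A4, which exchanges ADP for ATP across the inner membrane, read 10.64 on ORF, 10.78 on shRNA and 11.22 on control, ratios of −0.58 and −0.44.

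Regulators of mitochondrial biogenesis leaned the opposite way to the subunits. Their median over 16 genes was 0.092 for ORF against control, with 13 above 0, and 0.11 for shRNA against control, with 10 above 0, and the sign held under each scaling run. Of all 12664 genes, 6123 and 5975 were above 0. Most regulators were dimmer than the subunits, and only 4 were of top signal, with medians of 0.073 and 0.16. They included subunits of the ETS factor GABP, whose motif type is marked above. GABPA read 9.50 on ORF, 9.32 on shRNA and 9.11 on control, and GABPB1 10.83 on ORF, 11.08 on shRNA and 10.58 on control. NRF1 read 9.06 on ORF, 8.86 on shRNA and 9.21 on control, below control on both vector arrays. POLRMT, the mitochondrial RNA polymerase, was higher on ORF than on control by 0.36, and PPARGC1B higher on shRNA than on control by 0.46. Their noise SDs were 0.12 and 0.26. For ORF against control, GABPA gave 0.39 with a noise SD of 0.19 and GABPB1 0.25 with 0.12. For shRNA against control, GABPB1 gave 0.50 with 0.18 and NRF1 −0.34 with 0.26. Several of these ratios were thus within about 2 noise SDs.

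Of the supply pathways, the 17 genes of pyruvate dehydrogenase and the citric acid cycle had medians of −0.081 and −0.043 against control. PC, pyruvate carboxylase, was the lowest, at 8.77 on ORF, 8.52 on shRNA and 9.56 on control. The 18 glycolysis genes had −0.021 and −0.091, which turned to 0.019 and 0.010 with quantile normalization, with HK2 at 0.35 for ORF against control and PFKP at 0.36 for shRNA against control. Mitochondrial ribosomal proteins, another large set of nuclear genes for the same organelle, had medians of 0.018 (−0.011 with equal medians) and 0.00079 over 75 genes. The 8 hypoxia-linked switches had −0.036 (0.0091 with quantile normalization) and 0.064. The 59 cytosolic ribosomal proteins, mostly of very high signal, had −0.12 and −0.17, but 0.0091 and −0.011 with quantile normalization.

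**Figure D5:**
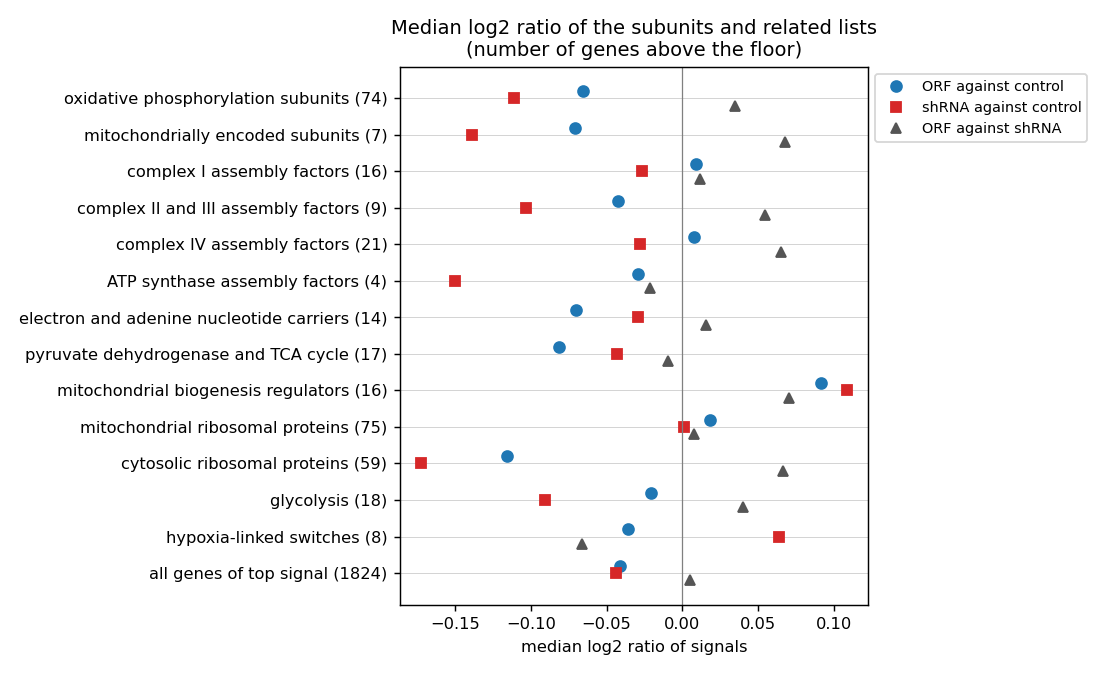
Median log2 ratio of the 74 subunit genes, of 12 related lists and of all 1824 top-signal genes, with the number of genes above the floor in brackets. Circles are ORF against control, squares shRNA against control and triangles ORF against shRNA. Subunits lie at −0.066 and −0.11 against control, cytosolic ribosomal proteins at −0.12 and −0.17 (0.0091 and −0.011 with quantile normalization), and biogenesis regulators at 0.092 and 0.11.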

How the data were processed

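Per the labels' protocols, biotin was incorporated by 3′ in vitro transcription from total RNA, and the authors deposited log2 signals for 54675 probe sets on 3 arrays. The submitters' processing notes name MAS5, without a version. The log2 scale was read from the values, since the linear signals of each array had the same 2% trimmed mean (500.1). Depth has no counterpart in these intensities. Of the probe sets, 41097 had 1 gene symbol in the platform annotation, 1801 several and 11777 none, and 41043 of those with 1 symbol matched RefSeq GRCh38.p14.

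Arrays were brought to equal trimmed means, values under the pooled median (5.93 log2 units, 60.8 linear) were raised to it, which shrinks ratios near it, and each gene was read from its brightest probe set. Log2 ratios were taken of ORF and of shRNA to control and of ORF to shRNA, with Python 3.11.15, numpy 2.4.6, pandas 2.3.3 and statsmodels 0.14.6. Noise SDs came from 6768 pairs of probe sets that shared a gene, in 20 bins of signal, and leave out all variation between cultures. No test was possible with 1 array per group. Samples were grouped by their transfection label.

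Named were HSPB1, the members past 1.5-fold, the highest and lowest member of each complex, those below the floor, and up to 3 genes per related list with the largest ratios among those whose mean signal reached 8.63 log2 units, the 75th percentile. Other members were named for their role or because a count was small, after their values had been seen. The members and lists were chosen with earlier results of these data known. The alternatives were quantile normalization, loess centring, scaling to equal medians, a floor at the 75th percentile or none, a pseudocount of 16, the median over a gene's probe sets, dropping those ending in _x_at or _s_at, and a 1.5-fold threshold. The procedure was tested on simulated data.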

Additional observations from a re-analysis of the deposited data

How the results depend on the processing

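The medians over all measured subunit genes kept their sign under every alternative run. For ORF against control the median was −0.019 with quantile normalization, −0.013 with loess centring, −0.095 with equal medians, −0.040 with the median over probe sets and −0.039 without probe sets ending in _x_at or _s_at. For shRNA against control it was −0.055, −0.052, −0.082 and −0.031 with quantile normalization, loess, the median over probe sets and without those probe sets, and for ORF against shRNA 0.0088 with equal medians, 0.021 with the median over probe sets and 0.011 without them. Medians of all top-signal genes moved too. With quantile normalization, loess, equal medians and without those probe sets they were −0.0027, 0.00022, −0.071 and −0.026 for ORF against control. For shRNA against control they were −0.0075, −0.00083, −0.043 and −0.014. For ORF against control the subunit medians were thus only slightly below those of top-signal genes. At 1.5-fold the counts were 0 and 0 for ORF against control, 1 and 0 for shRNA against control, and 0 and 0 for ORF against shRNA. Quantile normalization and loess each left 1 lower gene for ORF against control and 2 for shRNA against control. No floor and the pseudocount each gave 4 higher genes for shRNA against control, and a floor at the 75th percentile gave 1 higher gene for ORF against control and 1 for ORF against shRNA. The median over probe sets gave 2 lower genes for ORF against shRNA. Without _x_at and _s_at probe sets, which left 62 genes, 7 were higher and 4 lower for ORF against control, 6 higher for shRNA against control and 5 lower for ORF against shRNA. Leaving out ATP5IF1, an alternative chosen after seeing the data, gave 1 higher gene for shRNA against control and 0 lower for ORF against shRNA.

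Complex medians turned sign in 11 of 120 cases. For complex V, ORF against control became 0.0095 (quantile) and 0.0050 (loess), and ORF against shRNA −0.0031 without _x_at and _s_at probe sets. Equal medians gave −0.011 for complex I and −0.019 for complex II, ORF against shRNA. Complex II became 0.053 for ORF against control with the median over probe sets, and without those probe sets 0.082 for ORF and 0.088 for shRNA against control and −0.0063 for ORF against shRNA, where complex III became 0.053 for shRNA against control and −0.035 for ORF against shRNA. For shRNA against control, ATP5IF1 became −0.14 and NDUFB7 0.40 with the median over probe sets, and without those probe sets ATP5IF1 was −0.36, NDUFB7 1.11 and ATP5PD 0.020, while ATP5IF1 became 0.036 for ORF against shRNA. The cause of these turns was not tested beyond the change of probe set or scaling itself. Single arrays limit every value, since spread between cultures is not measured. No paired analysis was possible because there is 1 array per group and the labels give no replicate numbers.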
